A study of Mus musculus with 6 samples.

Results

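The serpins of the mouse epididymis were examined as the genes whose listed symbol consists of Serpin, a clade letter from a to i, a number and an optional letter. The rule used names only, and it found 63 serpin genes among the 57127 genes listed. Clade A had 25 members, clade B 27, clade E 3, clades F and I 2 each, and clades C, D, G and H 1 each. RNA of the whole epididymis was compared between adult C57BL/6 wild-type males (WT) and adult males of the same strain that lack occludin (Ocln-KO, Ocln-/-), with 3 libraries of each genotype. Occludin is a membrane protein of tight junctions, and its gene was deleted in the whole animal, so no result can be assigned to a single cell type. Mutant males were bred from heterozygous parents. The methods speak both of RNA extracted separately from the mice and of pooled RNA, so that n counts libraries, which may not each be 1 mouse, and p-values measure only the spread between these libraries.

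Ocln stood at 85.9, 78.8 and 91.8 CPM (counts scaled to a common library size) in WT replicates 1 to 3 and at 15.1, 15.3 and 14.9 CPM in Ocln-KO. The libraries therefore followed their labels, with a log2 fold change of -2.50 ± 0.09 (SE; adjusted p = 0.000108). Crisp1, a secretory product of the epididymal epithelium, was present at 4439 to 16768 CPM in all 6 libraries, although an extraction text in the sample records names prefrontal cortex. Total counts ran from 30646424 to 38870780 per library. On the first principal component, which held 47.2% of the variance, Ocln-KO replicate 3 lay at 86.3 against 17.7 and 29.1 for the other Ocln-KO libraries and -52.8 to -37.0 for WT, so it stood apart from its group.

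Serpins share a fold with an exposed reactive loop. Inhibitory serpins offer this loop to a serine or cysteine protease as a bait, and the cut loop swings into the body of the serpin and traps the protease in a covalent complex. Some members have lost this activity and carry hormones, assist collagen folding or signal. Clade A serpins are mostly secreted, clade B serpins are mostly intracellular, and in the epididymis secreted protease inhibitors enter the fluid in which sperm mature.

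Promoter sequences are shown first for the members on which the results turn. They are the 250 bases before the start in the RefSeq promoter table of GRCm38.p6, printed 5′ to 3′ on the gene's own strand, with motif matches in capitals. The table held 23 of the 28 members that were tested. Serpina16 at chr12:103676763-103677012 (minus strand) and Serpina1f at chr12:103695530-103695779 (minus strand) are given because these genes supplied most of the serpin transcripts.
Serpina16: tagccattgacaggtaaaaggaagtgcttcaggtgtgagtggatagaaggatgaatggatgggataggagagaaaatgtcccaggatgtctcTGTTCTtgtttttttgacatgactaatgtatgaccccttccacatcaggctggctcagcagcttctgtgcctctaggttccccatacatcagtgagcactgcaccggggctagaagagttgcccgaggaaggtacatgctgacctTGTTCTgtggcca
Serpina1f: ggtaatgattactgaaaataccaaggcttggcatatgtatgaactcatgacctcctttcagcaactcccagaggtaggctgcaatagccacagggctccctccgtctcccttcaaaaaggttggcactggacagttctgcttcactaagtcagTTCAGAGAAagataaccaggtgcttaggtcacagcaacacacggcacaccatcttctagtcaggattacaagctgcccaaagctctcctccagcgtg
Serpina7 at chrX:139085220-139085469 (minus strand) and Serpinb6b at chr13:32965011-32965260 (plus strand) are given as the members called lower in Ocln-KO.
Serpina7: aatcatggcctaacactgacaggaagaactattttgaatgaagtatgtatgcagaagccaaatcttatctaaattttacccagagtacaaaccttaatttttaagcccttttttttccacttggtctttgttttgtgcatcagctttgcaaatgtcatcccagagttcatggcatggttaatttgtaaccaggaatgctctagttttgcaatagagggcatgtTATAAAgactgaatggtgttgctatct
Serpinb6b: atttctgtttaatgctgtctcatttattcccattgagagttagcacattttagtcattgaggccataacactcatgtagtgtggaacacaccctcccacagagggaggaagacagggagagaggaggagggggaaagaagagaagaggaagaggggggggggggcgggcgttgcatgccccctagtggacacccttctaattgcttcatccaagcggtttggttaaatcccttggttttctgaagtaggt
Serpine2 at chr1:79858666-79858915 (minus strand) is given as the member called higher, and Serpina3g at chr12:104235897-104236146 (plus strand) as the other member whose Ocln-KO libraries all lay above WT.
Serpine2: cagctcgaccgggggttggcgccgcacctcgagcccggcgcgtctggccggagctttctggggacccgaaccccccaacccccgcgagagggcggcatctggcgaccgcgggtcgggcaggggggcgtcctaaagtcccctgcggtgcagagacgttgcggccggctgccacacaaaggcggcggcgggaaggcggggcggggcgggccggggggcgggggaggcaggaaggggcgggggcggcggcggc
Serpina3g: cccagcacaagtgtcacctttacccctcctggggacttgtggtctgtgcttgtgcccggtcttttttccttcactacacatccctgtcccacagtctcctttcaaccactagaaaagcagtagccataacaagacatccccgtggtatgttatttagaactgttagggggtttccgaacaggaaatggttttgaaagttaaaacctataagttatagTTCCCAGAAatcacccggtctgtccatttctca
The table takes 1 start per gene, which need not be the outermost. The windows of Serpina16 and Serpina7 therefore begin outside the outermost limits of their genes and end inside them. The window of Serpinb6b lies wholly inside the limits of its gene.

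Both strands were searched for AGAACA (the core of the androgen receptor element, TGTTCT on the other strand), TTCNNNGAA (a STAT site), CGGAAG (an ETS site) and TATAAA (the core TATA sequence). AGAACA lay in 7 of the 23 tested members with a promoter and in 16.1% of all 32851 promoters, TTCNNNGAA in 4 and 7.02%, TATAAA in 3 and 12.4%, and CGGAAG in 1 and 13.6%. The members with AGAACA included the neighbouring Serpina3n, Serpina3c, Serpina3i and Serpina3f, and those with TTCNNNGAA included Serpina3g, Serpina3i and Serpina3f. Serpina3n and Serpina3c had nearly the same letters around AGAACA. Matches in this cluster are therefore not separate cases, and the counts cannot be read as an excess over all promoters. Serpina16 held AGAACA at bases -158 to -153 and -13 to -8 before its start, both in the reverse orientation. Serpina1f held TTCNNNGAA at -97 to -89, Serpina3g held it at -33 to -25, and Serpina7 held TATAAA at -27 to -22. None of these motifs was found in the windows of Serpinb6b and Serpine2, and the latter was 78.8% G and C. A match describes the letters and is not a measured binding site.

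A pair of clade A genes, close together on chromosome 12, dominated the serpin transcripts of both genotypes. Serpins took 0.416%, 0.437% and 0.443% of all counts in WT replicates 1 to 3 and 0.291%, 0.361% and 0.271% in Ocln-KO, so the genotypes did not overlap. The 95% Wilson interval of each share, which covers counting error only, reached less far than the gaps between these libraries, for example 0.289% to 0.293% in Ocln-KO replicate 1. Serpina1f, a gene of the alpha-1-antitrypsin cluster, and Serpina16 together made up 90.2%, 91.0% and 91.8% of the serpin counts in WT and 87.0%, 86.9% and 81.7% in Ocln-KO. All other serpins summed to 423, 406 and 370.1 CPM in WT and to 361, 469 and 481 CPM in Ocln-KO, with overlapping genotypes. The lower serpin total in Ocln-KO was therefore carried by this pair. In bulk RNA, fewer cells that express a gene and less RNA per cell cannot be told apart, here or in the results that follow.

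**Figure D1:**
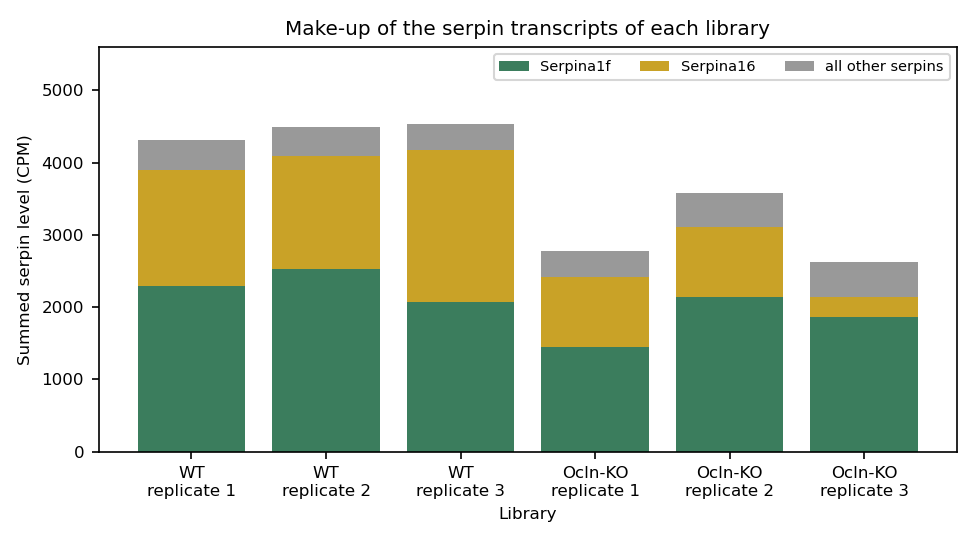
Stacked bars give the summed serpin level (CPM) of each library, split into Serpina1f, Serpina16 and all other serpins. Totals are 4318, 4494 and 4538 CPM in WT replicates 1 to 3 and 2780.1, 3580.0 and 2626 CPM in Ocln-KO, and the Serpina16 layer is thinnest in Ocln-KO replicate 3.

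Serpina16 stood at 1602, 1559 and 2091 CPM in WT and at 976, 974 and 287 CPM in Ocln-KO. All Ocln-KO libraries lay below all WT libraries, and replicate 3 lay lowest. The means were 1750.5 ± 295 CPM in WT against 746 ± 397 CPM in Ocln-KO (SD, n = 3), and the log2 fold change was -1.23 ± 0.41 with a 95% interval of -2.18 to -0.28. It missed the threshold, with an adjusted p of 0.0976 by the edgeR quasi-likelihood test over all 19691 genes tested. Without Ocln-KO replicate 3 it was -0.85, with an adjusted p of 0.0156. Over 13 alternatives the adjusted p ran from 0.0156 to 0.259 and the direction held.

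Serpina1f lay 11202 bases from Serpina16, at chr12:103688044-103695529 against chr12:103668808-103676841, both on the minus strand, with 1 RefSeq gene between them. It stood at 2293, 2530 and 2078 CPM in WT and at 1443, 2137 and 1858 CPM in Ocln-KO. Ocln-KO replicate 2 lay within the WT range, so the genotypes overlapped, and the log2 fold change of -0.34 ± 0.16 (95% interval -0.72 to 0.03) was not called (adjusted p = 0.201). The ratio of Serpina1f to Serpina16 counts was 1.43, 1.62 and 0.994 in WT and 1.48, 2.19 and 6.47 in Ocln-KO. These ratios overlapped as well, with the highest in replicate 3.

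Marker genes of regions and cell types are given beside this pair. The summed level of 5 genes listed beforehand as distal epididymis markers (Crisp1, Cd52, Aqp9, Slc9a2 and Crisp4) was 15341 to 19864 CPM in WT against 5222 to 11523 CPM in Ocln-KO. Replicate 3 was lowest, and 1 of the 5, Aqp9, was called lower. Whether each listed gene is distal was not tested. Crisp1 made up most of this sum, and Slc9a2 differed in sign, with a log2 fold change of 0.42 and its highest level, 59.0 CPM, in Ocln-KO replicate 3. Crisp4 too was higher in that library, at 197 CPM, than in the other Ocln-KO libraries. Its lowest level, 71.7 CPM, was in Ocln-KO replicate 1, as for the caput gene Lcn5 below and unlike Crisp1. Of 10 markers of caput principal cells 5 were tested and 1, Defb15, was called higher, with sums of 4153 to 5935 CPM in WT against 2821 to 7126 CPM in Ocln-KO. Lcn5 made up most of this sum, at 3926 to 5580 CPM in WT against 2479 to 6476 CPM in Ocln-KO. Lcn9, Adam28 and Cst11 had at most 5 counts in any library, Rnase10 at most 20 and Cst12 none. The spermatid and sperm markers, none of 8 called, summed to 193 to 258 CPM in WT against 65.5 to 278 CPM in Ocln-KO, with replicate 3 lowest. Clear cell markers, with 5 of 6 tested and Atp6v1b1, Atp6v0d2 and Foxi1 called lower, summed to 174 to 249 CPM in WT against 54.0 to 97.2 CPM in Ocln-KO. Car2, which was not called, made up most of the sum in WT, at 98.5 to 161 CPM. It was lowest in Ocln-KO replicate 3, at 5.89 CPM. Foxi1 and Atp6v0d2 had their highest Ocln-KO levels in that library, 24.0 and 10.6 CPM, so the order of the Ocln-KO sums followed Car2. The part of these cells and regions in the serpin values was not tested.

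Across genes, levels were ordered per length as RPKM (CPM per kilobase of merged exons). In WT Serpina16 came first with 1107 ± 187 RPKM (985 to 1321 over the libraries), above Serpina1f with 722 ± 71.0 RPKM (652 to 794), and the ranges did not overlap. In Ocln-KO Serpina16 had 617, 616 and 182 RPKM in replicates 1 to 3 (471 ± 251) and Serpina1f 453, 671 and 583 RPKM (569 ± 109.6). There the ranges overlapped, Serpina16 was above Serpina1f in replicate 1 and below it in replicates 2 and 3, and the lower mean of Serpina16 rested on replicate 3. The third was Serping1, the C1 inhibitor that holds complement and contact proteases in check, with 59.2 ± 9.02 RPKM in WT. Serpinh1, the collagen chaperone HSP47 of the endoplasmic reticulum, followed with 29.7 ± 3.15 RPKM, below the lowest Serping1 library at 48.9 RPKM.

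The next neighbours in WT were Serpinb9 with 12.99 ± 0.267 RPKM and Serpinf1 with 11.6 ± 0.702 RPKM, whose ranges did not overlap (12.7 to 13.2 and 10.8 to 12.0). Below them Serpinb6b had 7.44 ± 0.570 RPKM, Serpinb6a 6.25 ± 0.354, Serpina3n 6.24 ± 3.10 and Serpinb5 5.23 ± 0.770. Serpina3n, from 4.30 to 9.81 RPKM, overlapped each of the other 3 members of this last group. With the longest protein-coding transcript as the length, an alternative chosen after the data were seen, Serpinb6a stood at 20.4 RPKM in WT. It then lay above Serpinf1 at 14.9 RPKM and Serpinb9 at 13.1 RPKM, which changed places. The place of Serpinb6a and the order of Serpinb9 and Serpinf1 thus depended on the length used.

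**Figure D2:**
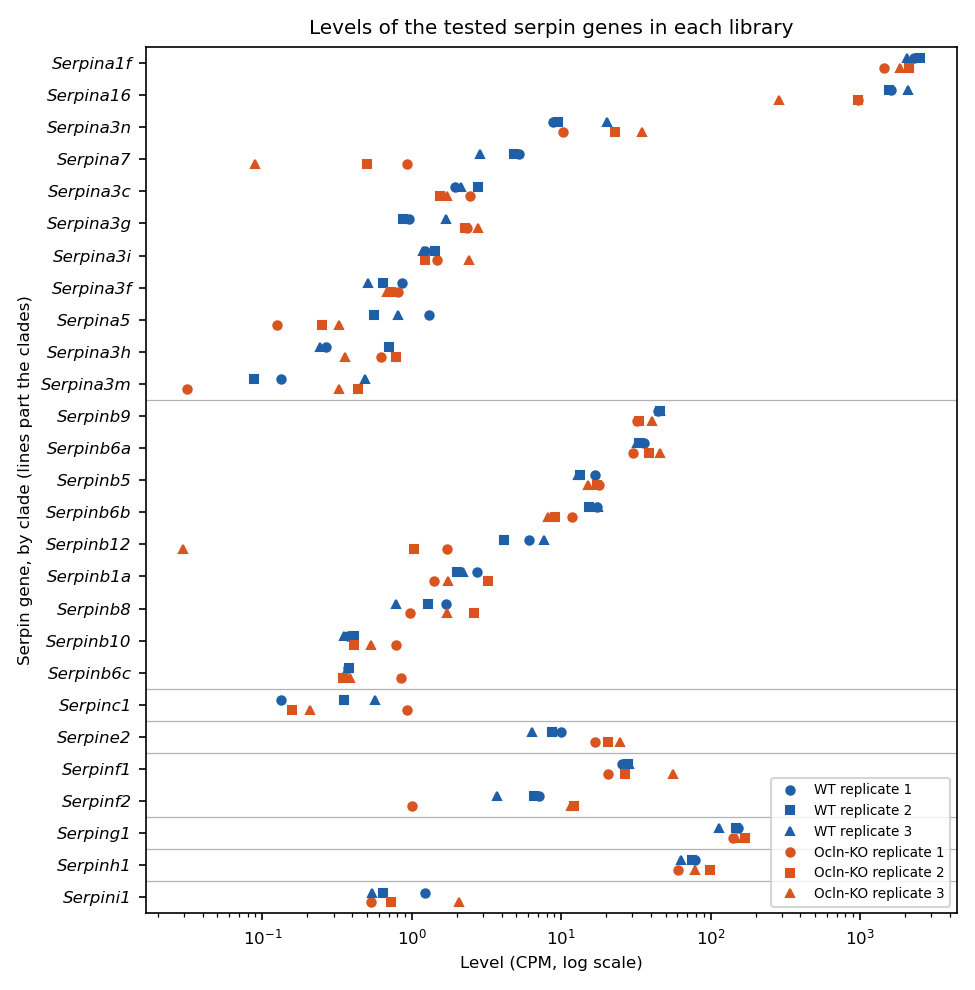
Each row is 1 of 27 tested serpin genes, grouped by clade and ordered by mean level. Points give its level in CPM on a log scale in each library, blue for WT and orange for Ocln-KO, with 1 marker shape per replicate number; Serpina1f and Serpina16 lie at the right, from 287 to 2530 CPM and Serping1 next, from 114 to 170.0 CPM.

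Most serpin genes had no count or few counts. No count was found in any library for 19 members, which allows at most 3 counted reads or 0.0802 to 0.0942 CPM in each. They were Serpina10, Serpina11, Serpina12, Serpina1a to Serpina1d, Serpina3j, Serpina9, Serpinb3a, Serpinb3d, Serpinb6d, Serpinb9c to Serpinb9g, Serpind1 and Serpini2. Alpha-1-antitrypsin genes and Serpind1, heparin cofactor II, are best known from liver. The liver markers among the lists were also few, with 2 of 8 tested, neither called, sums of 105 to 139 CPM in WT against 59.0 to 84.6 CPM in Ocln-KO, nearly all of it Trf and Fga, and no count for Apoa1.

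A further 16 members had counts but did not pass the filter on low counts. Their highest count in any library was 19 for Serpinb1b, 6 for Serpina3b and Serpinb9b, 5 for Serpinb2 and Serpinb6e, 4 for Serpinb7 and Serpinb1c, and 2 for Serpina6 (corticosteroid-binding globulin) and Serpina1e. It was 1 for Serpina3a, Serpina3k, Serpinb3b, Serpinb3c, Serpinb11, Serpinb13 and Serpine3. Several of these genes have near copies in their clusters, and how reads that fit several places were counted is not stated.

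The filter left 28 members, of which 1 was called higher and 2 lower in Ocln-KO. Over all genes tested 3.91% were called higher and 5.04% lower, and the members' counts lay close to these shares. Of the 28, 10.7% were called, against 8.95% of all tested genes. Scaling by total counts alone raised the share of higher calls among all calls from 43.7% to 63.5% and left the same 3 serpins called. In 2 members all Ocln-KO libraries lay above all WT libraries and in 6 all lay below, where 16.9% and 19.4% of all tested genes did so. The remaining 20 overlapped. Without Ocln-KO replicate 3, 1 member was called higher and 5 lower (Serpina16, Serpinb9 and Serpinb12 in addition), and without Ocln-KO replicate 2, 1 was higher and 0 lower, with 7 lower by the unadjusted p under 0.05. Without WT replicate 1, 2 or 3 edgeR called 0 members, although 1, 1 and 3 had an unadjusted p under 0.05 with a positive change and 6, 6 and 5 with a negative change. The median log2 fold change of the members was 0.20 against 0.01 over all genes, and 19 of the 28 had a positive sign (67.9%, against 50.9% of all genes).

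**Figure D3:**
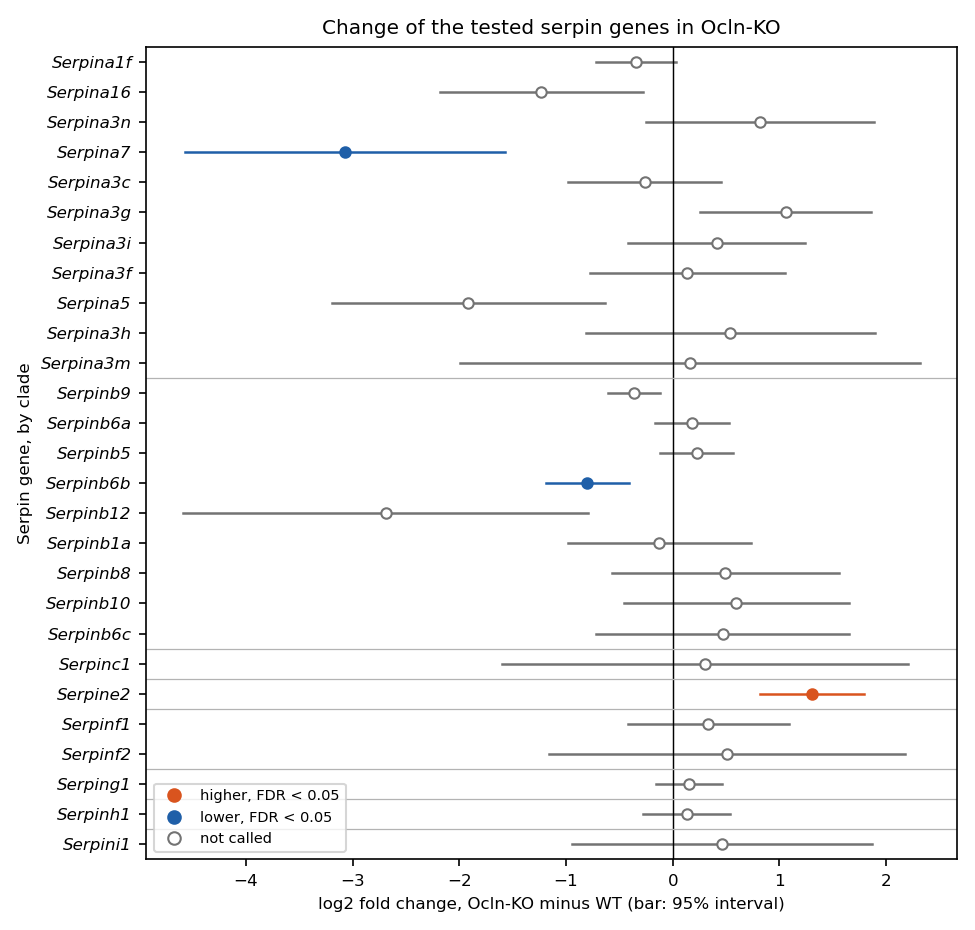
Points give the log2 fold change of 27 tested serpin genes, Ocln-KO minus WT, with bars for the 95% interval and filled points for FDR under 0.05. Serpine2 is the filled point to the right at 1.30, Serpina7 and Serpinb6b are the filled points to the left at -3.07 and -0.80, and the intervals of 8 members leave out 0.

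Serpine2 was the serpin called higher in Ocln-KO. It encodes protease nexin-1, a secreted and cell-bound inhibitor of thrombin, urokinase, tissue plasminogen activator and trypsin-like proteases, and it lies at chr1:79794317-79858665 (minus strand). Its level was 10.02, 8.73 and 6.36 CPM in WT against 16.8, 20.5 and 24.6 CPM in Ocln-KO, and every Ocln-KO library lay above every WT library. The means of 8.37 ± 1.86 and 20.6 ± 3.90 CPM (SD, n = 3) gave a 2.47-fold rise, a log2 fold change of 1.30 ± 0.21 (95% interval 0.81 to 1.79, adjusted p = 0.0201).

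The direction of Serpine2 held in all 13 alternatives, with log2 fold changes of 1.14 to 1.45 and adjusted p-values of 9.6e-07 to 0.084. Its adjusted p was 0.0778, 0.0604 and 0.0773 without WT replicate 1, 2 or 3. Markers of cell types in the wall and interstitium are given beside it. The 6 smooth muscle markers summed to 1182 to 1423 CPM in WT against 1601 to 2120.3 CPM in Ocln-KO, all with a positive change and 1, Myh11, called higher. The 8 fibroblast markers summed to 2513 to 2755 CPM in WT and to 1977, 2732 and 5476 CPM in Ocln-KO replicates 1 to 3, with none called at an FDR under 0.05. No defining marker of either list was at 0, and their part in the Serpine2 values was not tested.

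Serpine3, also of clade E, had at most 1 count in a library and was not tested.

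In clade A 1 of 11 tested members, Serpina7, was called lower and none higher. Serpina7 encodes thyroxine-binding globulin, a non-inhibitory carrier of thyroid hormone, and is the clade A member listed on chromosome X. It stood at 5.19, 4.81 and 2.85 CPM in WT (194, 164 and 106 counts) and at 0.935, 0.502 and 0.0888 CPM in Ocln-KO (30, 16 and 3 counts). All Ocln-KO libraries lay below WT, and replicate 3 was at the 3-count limit. The log2 fold change was -3.07 ± 0.65 (95% interval -4.57 to -1.57), an 8.40-fold fall (adjusted p = 0.0332).

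In 12 alternatives the log2 fold change of Serpina7 ran from -3.85 to -2.57 and its adjusted p from 1.24e-05 to 0.125, under 0.05 in 7. It was 0.125, 0.0896 and 0.0974 without WT replicate 1, 2 or 3 and 0.0877 without Ocln-KO replicate 2. Without Ocln-KO replicate 3 it was 0.0102, with a log2 fold change of -2.57. A filter of at least 10 counts in every library removed the gene through that library.

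Serpina5 and Serpina3g were the other clade A members, besides Serpina16, whose genotypes did not overlap. Serpina5, the protein C inhibitor, acts on activated protein C, kallikreins and acrosin and is known from the male tract. It had 49, 19 and 30 counts in WT and 4, 8 and 11 in Ocln-KO, or 0.891 ± 0.383 and 0.234 ± 0.102 CPM. All Ocln-KO libraries were lower, and the log2 fold change of -1.91 ± 0.55 (95% interval -3.19 to -0.63) was not called by edgeR (adjusted p = 0.0693). DESeq2 gave 0.0412, within a range of 0.0412 to 0.229 over the alternatives.

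Serpina3g, an intracellular inhibitor of cathepsins that interferon induces, went the other way. It stood at 0.962, 0.879 and 1.70 CPM in WT and at 2.34, 2.26 and 2.78 CPM in Ocln-KO, all above WT. The log2 fold change of 1.06 ± 0.35 (95% interval 0.25 to 1.86) was not called by edgeR (adjusted p = 0.0939), while DESeq2 gave 0.046 and the alternatives ran from 0.046 to 0.248. The 10 markers of macrophages and monocytes, all with a positive change and 1, Ccr2, called higher, summed to 214 to 256 CPM in WT against 272 to 486 CPM in Ocln-KO. The lymphocyte markers, with 5 of 10 tested, Jchain called higher and Cd2 at 0, summed to 3.39 to 4.43 CPM in WT against 9.89 to 15.9 CPM in Ocln-KO. Of its own 100-base windows 3.49% were shared with other Serpina3 genes. The part of these cells in the Serpina3g values was not tested.

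Serpina3n, an acute-phase inhibitor of granzyme B and other serine proteases, varied widely within both genotypes. It had 8.87, 9.49 and 20.2 CPM in WT against 10.3, 22.8 and 34.8 CPM in Ocln-KO. The highest WT library lay above the lowest Ocln-KO library, and the log2 fold change of 0.81 ± 0.46 (95% interval -0.25 to 1.88) was not called (adjusted p = 0.284). The other tested Serpina3 genes also overlapped between genotypes. Serpina3c ran from 1.54 to 2.78 CPM over the 6 libraries, Serpina3i from 1.18 to 2.43, Serpina3f from 0.512 to 0.855, Serpina3h from 0.242 to 0.785 and Serpina3m from 0.0312 to 0.485, with log2 fold changes from -0.26 to 0.54. These genes lie side by side on chromosome 12, and Serpina3m shared 6.09% of its 100-base windows with another gene, Serpina3k, so that its value is uncertain.

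**Figure D4:**
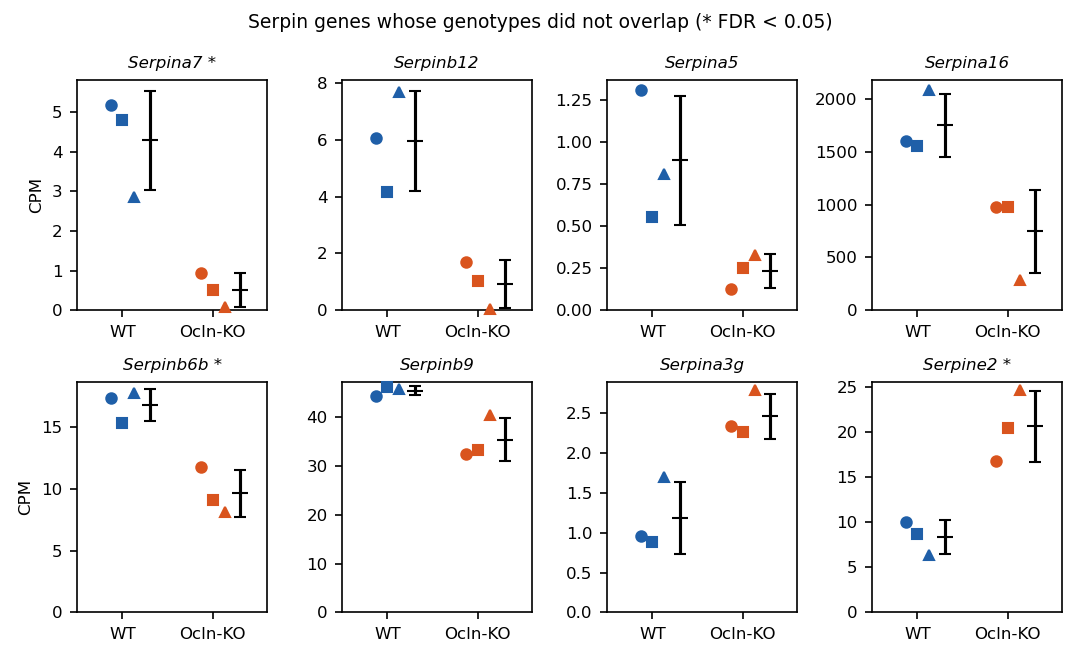
Each panel shows a serpin gene whose genotypes did not overlap, with its level (CPM, axis from 0) in each library and the mean ± SD in black. Serpina7, Serpinb12, Serpina5, Serpina16, Serpinb6b and Serpinb9 are lower in all Ocln-KO libraries and Serpina3g and Serpine2 are higher, and stars mark Serpina7, Serpinb6b and Serpine2 with an FDR under 0.05.

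In clade B 1 of 9 tested members, Serpinb6b, was called lower. It is 1 of the mouse relatives of human SERPINB6, an intracellular inhibitor of cathepsin G and trypsin-like proteases, and lies at chr13:32956811-32979067 (plus strand). Its level was 17.3, 15.4 and 17.8 CPM in WT against 11.8, 9.10 and 8.11 CPM in Ocln-KO, and all Ocln-KO libraries lay below WT. The means were 16.8 ± 1.29 and 9.66 ± 1.90 CPM (SD, n = 3), a 1.74-fold fall with a log2 fold change of -0.80 ± 0.17 (95% interval -1.19 to -0.41, adjusted p = 0.0332).

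Over 13 alternatives the log2 fold change of Serpinb6b ran from -0.96 to -0.69 and its adjusted p from 0.000958 to 0.125, under 0.05 in 8. It was 0.125, 0.075 and 0.117 without WT replicate 1, 2 or 3 and 0.0854 without Ocln-KO replicate 2. The related Serpinb6a stood at 36.0, 33.2 and 32.3 CPM in WT against 30.4, 38.5 and 46.0 CPM in Ocln-KO (log2 fold change 0.18 ± 0.15, 95% interval -0.17 to 0.53, adjusted p = 0.467). The libraries overlapped and the difference between the Serpinb6 genes was not tested. For Serpinb6a 19.9% of the 100-base windows were shared with genes on overlapping exons, so its value is uncertain. Serpinb6c, the third relative tested, stood at 0.345 to 0.842 CPM in all libraries (log2 fold change 0.47 ± 0.51, adjusted p = 0.590).

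Serpinb9, an inhibitor of granzyme B that protects cells from it, is the next serpin on chromosome 13, 17993 bases from Serpinb6b with no RefSeq gene between them. It stood at 44.3, 46.1 and 45.7 CPM in WT and at 32.4, 33.2 and 40.4 CPM in Ocln-KO, lower in all Ocln-KO libraries. The log2 fold change was small, -0.36 ± 0.11 (95% interval -0.61 to -0.12), and was not called (adjusted p = 0.0721). Without Ocln-KO replicate 3, its highest Ocln-KO library, it was -0.47 with an adjusted p of 0.0275, within a range of 0.0275 to 0.183 over the alternatives.

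Serpinb12, an inhibitor of trypsin-like proteases found in epithelia, differed widely among the Ocln-KO libraries. It had 6.07, 4.16 and 7.67 CPM in WT against 1.71, 1.04 and 0.0296 CPM in Ocln-KO, the last from a single count in replicate 3. All Ocln-KO libraries lay below WT, but the log2 fold change of -2.69 ± 0.82 (95% interval -4.59 to -0.79) was not called (adjusted p = 0.0786). Without replicate 3 it was -2.12 with an adjusted p of 0.0125, and over 12 alternatives the adjusted p ran from 0.0125 to 0.220. Serpina16, Serpina7, Serpinb6b and Serpinb12 all had their lowest level in Ocln-KO replicate 3. Serpina5 and Serpinb9, also below WT in all Ocln-KO libraries, had their highest Ocln-KO level there, at 0.326 and 40.4 CPM.

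The other clade B members overlapped between genotypes. Serpinb5, maspin, a non-inhibitory serpin of epithelia and basal cells, stood at 16.8, 13.3 and 13.03 CPM in WT against 18.0, 17.3 and 15.1 CPM in Ocln-KO (log2 fold change 0.22 ± 0.15, adjusted p = 0.358). The 6 basal cell markers summed to 251 to 269 CPM in WT against 259 to 305 CPM in Ocln-KO, with 1, Krt14, called higher and none at 0. Of these markers 4 had a positive change. Itga6, with all Ocln-KO libraries below WT, had a log2 fold change of -0.21 and Itgb4 of -0.06, both not called. Serpinb1a, an inhibitor of neutrophil elastase and cathepsin G, ran from 1.40 to 3.26 CPM over the 6 libraries (log2 fold change -0.12 ± 0.37, adjusted p = 0.858), and Serpinb8 and Serpinb10 ran from 0.781 to 2.61 and from 0.350 to 0.779 CPM.

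The remaining clades gave no call, and their intervals left room for changes in either direction. Serping1 had 152, 147 and 114 CPM in WT against 141, 170.0 and 148 CPM in Ocln-KO (log2 fold change 0.15 ± 0.13, 95% interval -0.15 to 0.46, adjusted p = 0.492). Serpinh1 had 78.5, 75.3 and 63.9 CPM in WT against 60.4, 99.1 and 78.8 CPM in Ocln-KO (0.13 ± 0.18, interval -0.28 to 0.54, adjusted p = 0.668), and its sign turned to -0.06 without Ocln-KO replicate 2. Both genes overlapped between genotypes.

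Serpinf1, the secreted non-inhibitory factor PEDF, had 25.4, 28.2 and 28.4 CPM in WT against 20.7, 26.6 and 55.8 CPM in Ocln-KO. Replicate 3 alone lay above WT, and without it the log2 fold change of 0.33 ± 0.33 (adjusted p = 0.546) became -0.21. The fibroblast markers were highest in the same library, at 5476 CPM in sum, and their part was not tested. Serpinf2, which lies 9112 bases away with 2 RefSeq genes listed between them, encodes the plasmin inhibitor alpha-2-antiplasmin. It had 7.08, 6.59 and 3.74 CPM in WT against 0.997, 12.1 and 11.7 CPM in Ocln-KO. The Ocln-KO libraries lay on both sides of WT (log2 fold change 0.51 ± 0.72, 95% interval -1.16 to 2.18, adjusted p = 0.684).

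Serpinc1, antithrombin, ran from 0.134 to 0.935 CPM over the 6 libraries (log2 fold change 0.30 ± 0.82, adjusted p = 0.844), and 32.2% of its 100-base windows overlapped a gene on the opposite strand. Serpini1, neuroserpin, an inhibitor of tissue plasminogen activator, ran from 0.530 to 2.07 CPM (0.46 ± 0.61, adjusted p = 0.659). The genotypes overlapped in both.

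Proteases, cofactors and receptors on which serpins act were read from the same test, as 6 lists of 78 genes. Of the 46 tested, 5 were called higher and 4 lower in Ocln-KO, where 3.91% and 5.04% of all tested genes were. With 4 to 11 genes tested in each list, the counts of single lists were too small to be read against these shares. In the plasminogen list 11 of 13 genes were tested, 1 was higher and 1 lower, with a median log2 fold change of -0.21. Plat, the tissue plasminogen activator that Serpine2 inhibits, rose from 11.3, 11.3 and 10.96 CPM in WT to 15.2, 19.4 and 19.1 CPM in Ocln-KO, with no overlap (log2 fold change 0.68 ± 0.14, adjusted p = 0.0297). Lrp2, megalin, an endocytic receptor that takes up serpin complexes, fell from 739.9, 742 and 918 CPM to 475, 332 and 208 CPM (-1.24 ± 0.27, adjusted p = 0.0351). Lrp1, in the same list, overlapped between genotypes, at 470 to 534 CPM in WT against 490 to 631 CPM in Ocln-KO (0.12, adjusted p = 0.558). Vldlr was below WT in all Ocln-KO libraries but was not called (-0.40, adjusted p = 0.108). Plau, urokinase, was at 96.6 to 161 CPM in WT against 72.1 to 117 CPM in Ocln-KO and was not called (adjusted p = 0.216).

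Among coagulation, contact and complement proteases 7 of 14 were tested, none was higher and 1 was lower (median log2 fold change 0.44). This was Klkb1, plasma kallikrein, a target of Serping1, which fell from 6.68, 8.59 and 11.6 CPM to 0.686, 1.35 and 1.95 CPM (-2.74 ± 0.39, adjusted p = 0.0144). The complement proteases C1s1, C1ra and C1s2 went the other way, with all Ocln-KO libraries above WT, but were not called. Their log2 fold changes were 0.48, 0.44 and 1.03 (adjusted p = 0.0589, 0.0645 and 0.0732). Proc, Masp1 and Masp2 overlapped between genotypes. In the granule list 4 of 11 were tested and 1 was higher, with all 4 changes positive (median 0.93). Cma1, the mast cell chymase, rose from 0.187, 0.264 and 0.188 CPM to 1.18, 1.22 and 0.888 CPM (2.35 ± 0.43, adjusted p = 0.0241). Among the members that were not tested, the genotypes of Ctsg and Mcpt4 did not overlap. Ctsg, cathepsin G, went the other way, with 11, 9 and 8 counts in WT against 2, 2 and 0 in Ocln-KO. Mcpt4 had 7, 5 and 6 counts in WT against 20, 23 and 8 in Ocln-KO. Elane, neutrophil elastase, had no count in any library. The neutrophil markers, 3 of 10 tested and none called, summed to 9.20 to 10.7 CPM in WT against 7.82 to 13.2 CPM in Ocln-KO. Mmp9 made up most of this sum, at 7.54 to 8.91 CPM in WT against 5.05 to 8.26 CPM in Ocln-KO. S100a8 and Ly6g had at most 1 count in any library and Cxcr2 at most 2. S100a9, Ngp and Camp had counts in WT replicate 3 only, so this sum says little about neutrophils. None of the 4 kallikreins tested, of 17 listed, was called.

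The epithelial and sperm serine proteases had 11 of 14 tested, 2 higher and 2 lower (median log2 fold change -0.02). St14, matriptase, rose from 130.5, 134 and 137 CPM to 205, 169.6 and 178 CPM (0.46 ± 0.10, adjusted p = 0.0322). Tmprss4 rose from 0.241, 0.0293 and 0.889 CPM to 4.08, 7.82 and 2.57 CPM (3.62 ± 0.85, adjusted p = 0.0416). The falls were in another membrane protease and a secreted protease. Hpn, hepsin, fell from 30.98, 25.0 and 20.3 CPM to 5.64, 8.51 and 5.50 CPM (-1.96 ± 0.23, adjusted p = 0.00863), and Htra1 from 88.5, 74.6 and 75.8 CPM to 31.6, 38.7 and 32.7 CPM (-1.21 ± 0.12, adjusted p = 0.00614). Of 9 cysteine cathepsins, all tested, only Ctss was called (median 0.02). Ctss, cathepsin S of antigen-presenting cells, rose from 22.3, 19.4 and 23.1 CPM to 32.1, 57.3 and 68.5 CPM (1.28 ± 0.25, adjusted p = 0.0280). Macrophage and lymphocyte markers were higher in the same libraries, by the sums given for Serpina3g, and their part was not tested.

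These calls also changed when libraries were left out. Without WT replicate 1, 2 or 3 none of the 78 genes was called higher (8, 8 and 9 had an unadjusted p under 0.05 and a positive change), while 1, 2 and 2 were called lower. Without Ocln-KO replicate 2 none was called higher (9 by the unadjusted p), while 3 were called lower. Htra1 had an adjusted p under 0.05 with any single library left out.

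**Figure D5:**
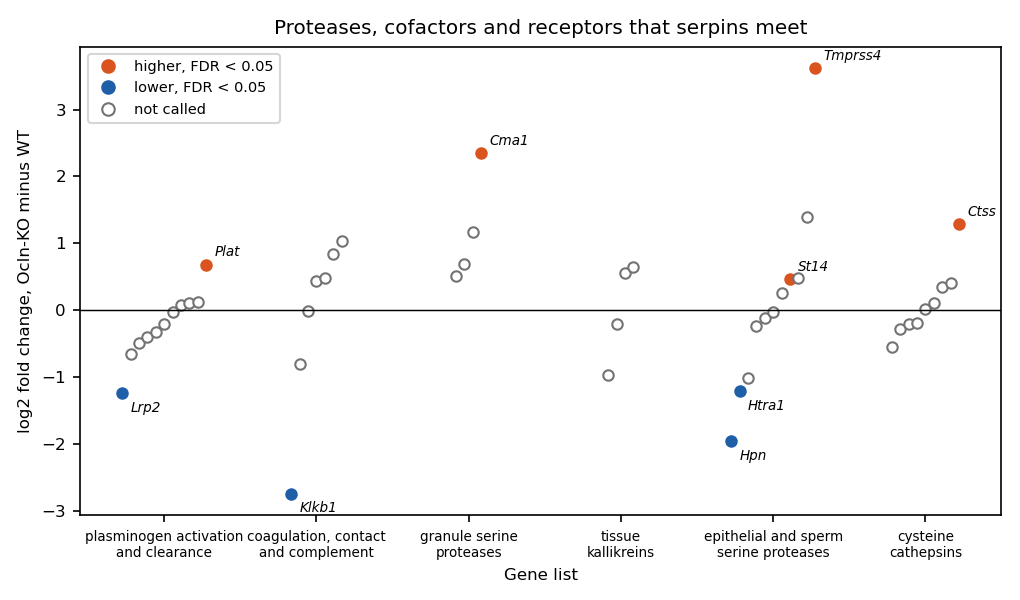
Points give the log2 fold change of each tested protease, cofactor or receptor, Ocln-KO minus WT, in 6 lists, with filled and named points for FDR under 0.05. The named points run from Klkb1 at -2.74 to Tmprss4 at 3.62, and no kallikrein is filled.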

How the data were processed

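Whole-epididymis RNA of 3 WT and 3 Ocln-KO libraries was depleted of rRNA, made into directional libraries and sequenced as paired ends. The authors aligned reads to GRCm38 with HISAT2 2.0.4 (version from the submitters' processing notes) and counted them per gene with HTSeq. The deposited values are raw read counts per gene, without normalization; the counting mode, the strand setting and the treatment of multiply aligned reads are not given in the sources used here, so reads of overlapping or near-identical genes cannot be told apart. Columns were matched to samples by name and replicate number, and 0 were unmatched.

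Counts were analysed with edgeR 4.0.16 in R 4.3.3. Of 32046 genes with a count, filterByExpr with genotype as group kept 19691. Libraries were scaled by TMM (effective sizes 31860861 to 37410050, so 1 count is 0.0267 to 0.0314 CPM), the common dispersion was 0.0577, and genotypes were compared with glmQLFit and glmQLFTest on all 6 libraries without covariates. P-values were adjusted by Benjamini-Hochberg over all genes tested, and a gene was called at an FDR under 0.05. The standard error of a log2 fold change was taken as its size over the square root of F, and 95% intervals use the t quantile of the fit. Intervals of shares and the limit of 3 counts cover counting error only. With 3 libraries against 3 an exact permutation test cannot pass 0.05, so none is given.

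RPKM is CPM per kilobase of merged GENCODE M21 exons (GRCm38). Coordinates and promoters are from RefSeq GRCm38.p6, in which all 63 members had an entry. Windows of 100 bases were compared across GENCODE transcripts to find shared sequence.

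Called members and the 10 of highest mean RPKM are given per library, the rest by clade, with those that did not overlap named, and called protease genes are named. The values of 1 tested member are not reported here, though it is in all counts. Members and lists were chosen with earlier results of these data known. On simulated counts with 200 genes changed 4-fold, edgeR recovered 81.5% with 10 false calls among 19300 genes. DESeq2 1.42.0 recovered 92% with 37 and limma-voom (limma 3.58.1) 81% with 7. The changed genes were drawn from those above a limit of expected counts, so these rates do not describe smaller changes or genes with few counts. Other alternatives were other scaling factors, other filters, a replicate block, a 2-fold threshold and each library left out in turn. The paper's methods speak of pairs of WT and Ocln-KO mice but do not say how they were paired, and the main test used no pairing. Correlations of same-numbered libraries' deviations were -0.05, -0.03 and -0.003. They showed no pairing by number but cannot exclude a paired design.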

Additional observations from a re-analysis of the deposited data

How the results depend on the processing

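Of the serpins, the main test called 1 higher and 2 lower. limma-voom, RLE factors and total counts alone called the same 3. DESeq2 called 2 higher, Serpina3g in addition, and 3 lower, with Serpina5. Without a filter 4 were lower, with Serpina16 and Serpinb12, and with at least 10 counts in every library 1, since Serpina7 was no longer tested. A 2-fold threshold left 1 lower, Serpina7. Leaving out 1 library gave 0 to 1 higher and 0 to 5 lower: none without any WT library, with 1 to 3 higher and 5 to 6 lower at an unadjusted p under 0.05.

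The libraries of the same number did not deviate together, and with a replicate block 0 serpins were called by edgeR (3 higher and 6 lower at an unadjusted p under 0.05), against 10 higher and 31 lower of all genes and 0 higher and 1 lower of the protease genes.

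Over all genes the 770 higher became 1604 by DESeq2, 1175 by total counts, 293 with a 2-fold threshold and 4 to 782 with a library left out, and the 992 lower became 1708 by DESeq2, 335 with a 2-fold threshold and 19 to 944. The 5 higher protease genes became 8 by DESeq2, 3 with at least 10 counts or a 2-fold threshold and 0 to 7 with a library left out, and the 4 lower 1 to 4. The sign turned for Serpinf1 (-0.21 to 0.60 with a library left out) and Serpinh1 (-0.059 to 0.30), both not called. Apart from the smaller sample of a left-out library, the cause was not tested. Members under 1 CPM in all libraries, 6 of those tested, rest on few counts.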
